A study of Mus musculus with 21 samples.

Results

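Heat shock chaperones are the proteins that cells use to fold new proteins, to hold damaged ones in solution and to hand those beyond repair to degradation. The description covers 10 of the 55401 mouse genes in the count table, matched by gene symbol to their Ensembl identifiers: the inducible Hsp70 genes Hspa1a and Hspa1b, the constitutive Hsp70 gene Hspa8, the Hsp110 gene Hsph1, the Hsp90 alpha gene Hsp90aa1, the Hsp40 gene Dnajb1, the small heat shock protein genes Hspb1, Hspb6 and Hspb8, and the co-chaperone gene Bag3. All 10 had enough counts to be tested in every comparison.

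The RNA came from forebrains of 21 mice. The parental groups E2H, E3H and E4H held 3 mice each, on a C57BL6 background, 9 to 10 months old, with human APOE2, APOE3 or APOE4 in place of both copies of the mouse gene. Another 4 mice each made up PS/E2H, PS/E3H and PS/E4H. They were homozygous for the same APOE alleles and also carried 1 copy of the PS19 transgene, which makes human tau with the P301S mutation under the mouse prion promoter. These bigenic mice descend from PS19 mice kept on a B6/C3H background, whose offspring were bred again to the APOE lines, and they were killed when both hindlimbs were paralyzed. Whenever PS19 mice are set against parental mice, the transgene, the paralysis, the age and some of the strain background cannot be told apart. The study reports that its PS/E3H cohort reached paralysis later than PS/E2H and PS/E4H. Comparisons among PS19 groups, and of PS19 against parental differences between lines, may therefore also differ in age, whose part was not tested. The labels of a mouse do not include its sex. Per the study's methods the mice were male apart from some females in E4H, PS/E2H and PS/E4H, so comparisons with these groups also differ in sex, which was not fitted because the labels do not give it, and whose part was not tested.

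Hsp70, with an Hsp40 partner that delivers clients and an Hsp110 partner that exchanges its nucleotide, is the central folding machine of the cytosol, and Hsp90 receives part of its clients. Small heat shock proteins bind unfolding proteins without ATP. HSPB8 forms a complex with BAG3, which also binds Hsp70 and directs clients to selective autophagy, and tau is among the known clients of these chaperones. In a classical heat shock response the transcription factor HSF1 binds heat shock elements, which are inverted repeats of the triplet GAA, and turns on most of these genes together.

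To show what the members share in sequence, stretches of their RefSeq promoters (GRCm38.p6) were read, written 5′ to 3′ along the gene, with each pair of facing triplets, GAANNTTC or TTCNNGAA, in capitals. They are the promoters of the 4 members that were higher in PS19 mice, and for contrast those of Hsph1 and Hspa1a, which did not pass. Those of Hspb8, Hspb1, Hspb6 and Hspa1a run from 130 bases before to 30 bases after the start site. The 30-base stretches of Bag3 and Hsph1 run from position 21 to 50 after it.
Hspb8: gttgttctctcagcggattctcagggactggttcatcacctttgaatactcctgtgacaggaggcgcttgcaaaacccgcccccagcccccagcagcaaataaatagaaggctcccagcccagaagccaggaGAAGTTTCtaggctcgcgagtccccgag
Hspb1: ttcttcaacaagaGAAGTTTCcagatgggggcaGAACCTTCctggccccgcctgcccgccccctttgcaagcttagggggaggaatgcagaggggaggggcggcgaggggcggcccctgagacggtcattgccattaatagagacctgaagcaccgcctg
Hspb6: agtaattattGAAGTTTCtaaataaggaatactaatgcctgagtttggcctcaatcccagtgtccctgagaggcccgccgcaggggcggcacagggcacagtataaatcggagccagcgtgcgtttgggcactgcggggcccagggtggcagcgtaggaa
Bag3: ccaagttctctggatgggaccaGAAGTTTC
Hsph1: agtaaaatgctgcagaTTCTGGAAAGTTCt
Hspa1a: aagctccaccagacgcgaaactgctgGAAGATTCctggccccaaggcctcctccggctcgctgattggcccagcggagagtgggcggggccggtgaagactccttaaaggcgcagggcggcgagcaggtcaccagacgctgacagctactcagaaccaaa

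The 160-base stretches lie at chr5:116422835-116422994 (minus strand, Hspb8), chr5:135887789-135887948 (plus strand, Hspb1), chr7:30553171-30553330 (plus strand, Hspb6) and chr17:34972127-34972286 (minus strand, Hspa1a). Those of 30 bases lie at chr7:128523603-128523632 (plus strand, Bag3) and chr5:149636287-149636316 (minus strand, Hsph1). Promoter windows of 300 bases were on hand for 8 members, in 11 windows, with none for Hspa8 and Hsp90aa1. At least 1 pair of facing triplets was found in 8 of the 11 windows, where 15.1% of 32841 promoter windows of mouse genes of the same length hold one. The 8 windows belong to 7 members, all but Dnajb1. Hspb6 has another window that holds no pair and is not printed. Both motifs read the same on either strand. Alternating GAA and TTC triplets, 3 in a row with 2 bases between, were searched on both strands and overlap the pairs. They stood in the windows of 1 member, Hsph1, and in 0.603% of all windows. The windows of Hspa1a and Hspa1b differed at 4 of 300 positions, and both held a pair that starts at -104. A match of letters describes the sequence and does not show that a factor binds there.

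Levels can be compared between genes in FPKM, which is scaled for transcript length. In the 9 parental mice, Hspa8 stood first at 397 ± 23.4 FPKM (SD, n = 9), followed by Hsp90aa1 at 282 ± 12.8, Hsph1 at 38.7 ± 2.94, Dnajb1 at 17.1 ± 1.19 and Hspb8 at 7.96 ± 0.686. The SDs of these 5 do not reach one another. Hspb1 (3.93 ± 0.614), Hspa1a (3.80 ± 0.447), Bag3 (3.34 ± 0.436) and Hspa1b (3.32 ± 0.322) could not be ordered within their spread. Hspb6 was the lowest of the 10, at 1.93 ± 0.386 FPKM.

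**Figure D1:**
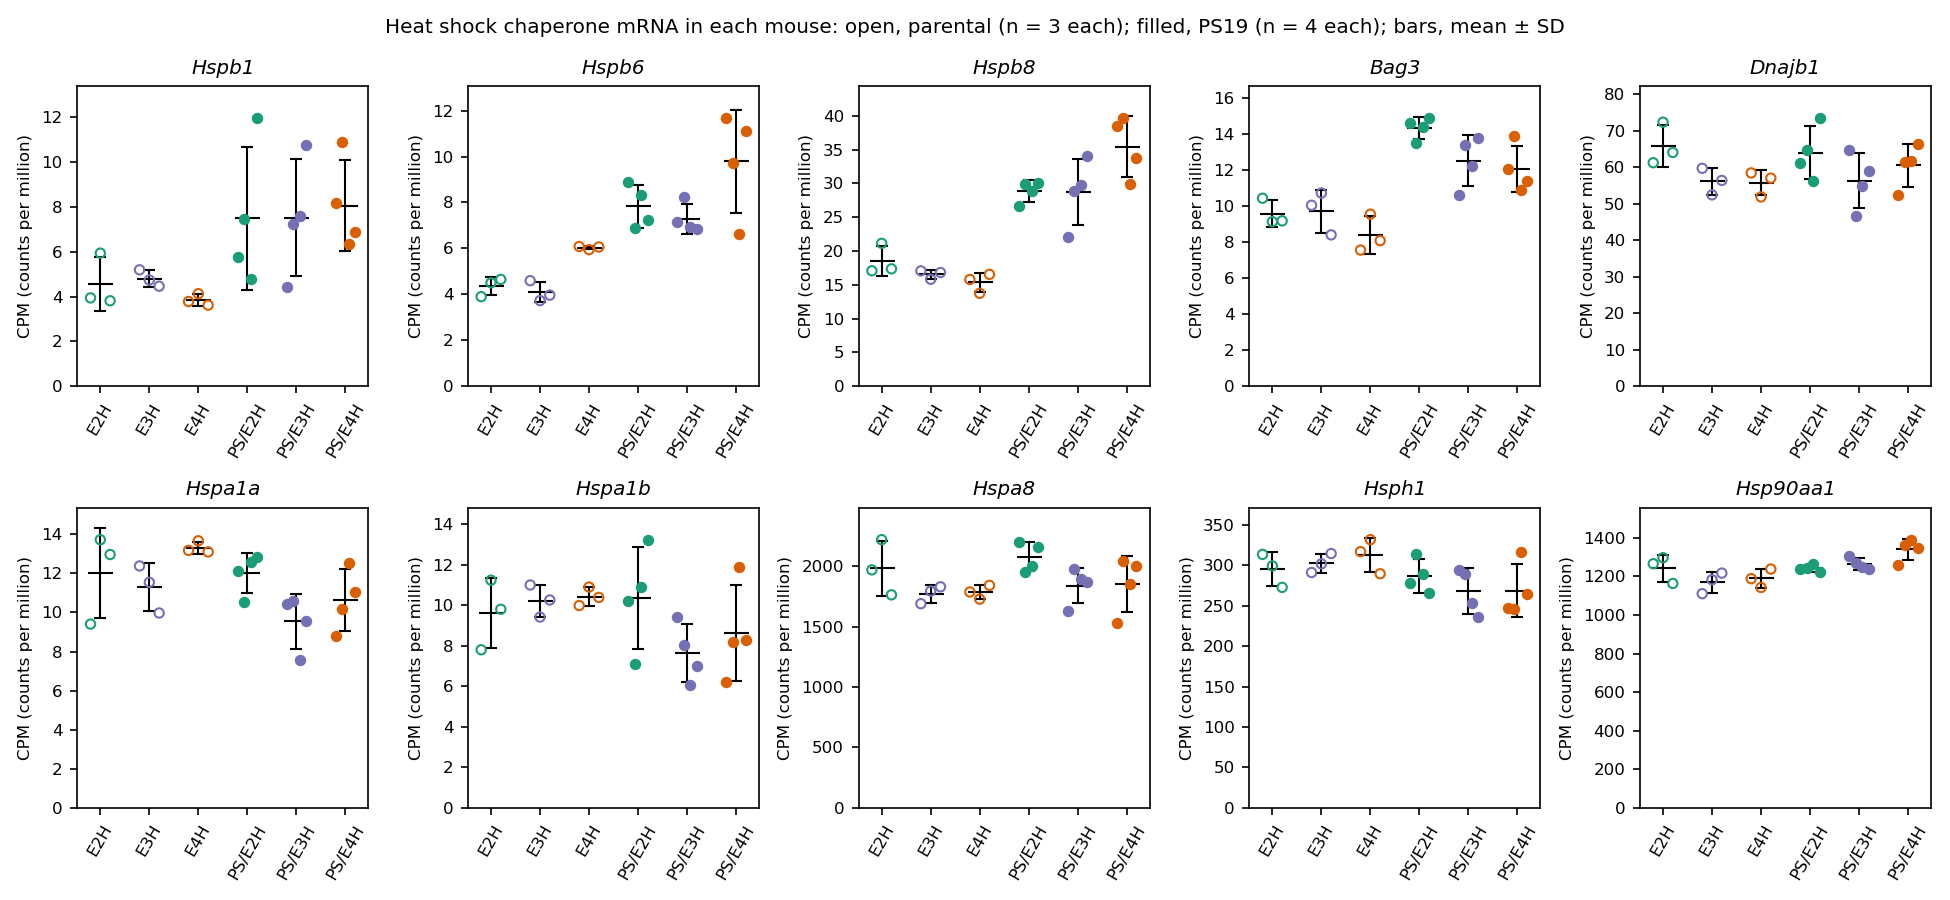
Level of each member in each of the 21 mice, in CPM, the count scaled to the library total (vertical axes from 0); open points are parental mice, filled points PS19 mice, and black bars the mean and SD of a group. Hspb6 and Hspb8 are higher in each of the 12 PS19 mice than in any of the 9 parental mice, whereas the points of Dnajb1 and Hspa8 overlap.

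Within one gene, levels are given as CPM, a count divided by the library total and scaled to a common size, after TMM scaling, a correction for differences in library make-up. A gene passed where the Benjamini-Hochberg adjusted p of edgeR's quasi-likelihood test, over all genes tested, was under 0.05. In bulk RNA, fewer cells of a type and less RNA per cell cannot be told apart.

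The question of the first comparisons was which members differ between PS19 mice and parental mice with the same APOE alleles. Over all 21 mice, with the APOE line as a covariate, 4 of the 10 members were higher in PS19 mice, namely Hspb8, Hspb6, Hspb1 and Bag3, and 0 were lower. Of all 22863 genes, 21% passed, 11.4% higher and 9.63% lower, and 2.60% passed with a fold change of at least 2, which 0 members reached. The median log2 fold change was 0.08 over the 10 members and -0.01 over all genes.

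Hspb8 (chr5:116408491-116422864, minus strand, GENCODE M21 on GRCm38), the small heat shock protein that partners BAG3, had the smallest adjusted p of the members. Its levels were 17.1, 21.1 and 17.4 CPM in the E2H mice, 17.1, 15.8 and 16.8 in the E3H mice, and 15.8, 13.7 and 16.6 in the E4H mice. In the PS19 mice they were 26.6, 29.96, 28.8 and 30.1 CPM (PS/E2H), 22.2, 28.9, 29.7 and 34.1 (PS/E3H), and 38.5, 39.7, 29.9 and 33.7 (PS/E4H). Each of the 12 PS19 mice was above all 9 parental mice. The mean rose from 16.8 ± 1.96 (SD, n = 9) to 31.0 ± 4.86 CPM (SD, n = 12), a log2 fold change of 0.88 ± 0.087 (SE) with an adjusted p of 2.15e-07 in edgeR. The change passed in each line, at 0.64 in PS/E2H (adjusted p = 0.0424), 0.78 in PS/E3H (0.0114) and 1.2 in PS/E4H (0.000264). In PS/E4H it passed with each mouse left out in turn, where the adjusted p was at most 0.00257. In PS/E2H it passed in 1 of 7 such fits and in PS/E3H in 4 of 7.

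Hspb6, also called Hsp20, is a small heat shock protein best known from muscle. Parental levels were 3.90, 4.505 and 4.65 CPM in E2H, 4.60, 3.73 and 3.97 in E3H, and 6.08, 5.95 and 6.07 in E4H. The PS19 levels were 8.90, 6.90, 8.32 and 7.23 CPM in PS/E2H, 7.13, 8.24, 6.93 and 6.86 in PS/E3H, and 11.7, 9.72, 6.65 and 11.1 in PS/E4H. No PS19 mouse reached down to the parental range, and the 3 E4H mice stood above the other 6 parental mice. The pooled log2 fold change was 0.79 ± 0.090 (SE, adjusted p = 1.3e-06). Within lines it was 0.84 in PS/E2H (adjusted p = 0.0479), 0.82 in PS/E3H (0.0136) and 0.69 in PS/E4H (0.0305). Of 7 other settings Hspb6 passed in 4 in PS/E2H (adjusted p up to 0.0861), 7 in PS/E3H (up to 0.0477) and 3 in PS/E4H (up to 0.118). The call in PS/E2H was lost in each of the 7 fits that left out 1 mouse (adjusted p from 0.0566 to 0.198), that in PS/E3H in 3 of 7, when any 1 E3H mouse was left out (up to 0.0675), and that in PS/E4H in 6 of 7. The gene (chr7:30552178-30555443, plus strand) overlaps Lin37 and Proser3 on the other strand. The library kit marks strand, but whether the counting used it is not given in the sources used here. Lin37 and Proser3 had log2 fold changes of 0.02 (adjusted p = 0.886) and -0.13 (0.479).

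Hspb1 (chr5:135887919-135889563, plus strand), or Hsp25 in mice, is the small heat shock protein that reactive astrocytes are known to make. Its parental levels were 3.94, 5.94 and 3.81 CPM in E2H, 5.19, 4.74 and 4.46 in E3H, and 3.78, 4.13 and 3.62 in E4H. Levels in PS19 mice were 5.76, 7.47, 4.77 and 11.95 CPM (PS/E2H), 4.41, 7.23, 7.60 and 10.8 (PS/E3H), and 8.16, 10.9, 6.34 and 6.86 (PS/E4H). It varied most between mice of one group, with a coefficient of variation of 42.4% in PS/E2H, and 9 of the 12 PS19 mice were above all parental mice. The pooled log2 fold change was 0.81 ± 0.16 (SE, adjusted p = 0.00108). The line fits gave 1.06 in PS/E4H, a 2.09-fold rise (adjusted p = 0.00654), while the values of 0.71 in PS/E2H (0.446) and 0.63 in PS/E3H (0.170) did not pass. Leaving out 1 mouse gave 0.39 to 0.94 in PS/E2H and 0.41 to 0.82 in PS/E3H. Hspb1 passed in 0 of 7 such fits in PS/E2H and in 1 of 7 in PS/E3H. About 48.8% of its 50-base transcript windows also occur in the pseudogene Hsp25-ps1, which was given 0 to 40 counts a mouse where Hspb1 had 254 to 756.

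Bag3 (chr7:128523616-128546981, plus strand), the co-chaperone that joins small heat shock proteins to Hsp70, had 10.5, 9.15 and 9.20 CPM in E2H, 10.1, 10.7 and 8.42 in E3H, and 7.57, 9.57 and 8.10 in E4H. Its values were 14.6, 13.5, 14.4 and 14.9 CPM in PS/E2H, 10.6, 13.4, 12.3 and 13.8 in PS/E3H, and 12.1, 13.9, 10.9 and 11.4 in PS/E4H. The lowest PS19 mouse, PS/E3H replicate 1, lay just under the highest parental mouse, and the other 11 lay above it. Pooled over lines it rose by 0.49 ± 0.070 on the log2 scale (SE, adjusted p = 2.49e-05), a 1.40-fold change. In PS/E4H the value of 0.52 passed (adjusted p = 0.0246). That call held in 4 of 7 fits that left out 1 mouse (adjusted p from 0.023 to 0.107) and was lost without E4H replicate 1, E4H replicate 3 or PS/E4H replicate 2. It held in 5 of 7 other settings. In PS/E2H the value of 0.58 did not (0.0685), although the 4 PS/E2H mice and the 3 E2H mice did not overlap, and neither did 0.35 in PS/E3H (0.142). The PS/E2H value of Bag3 passed in 2 of 7 other settings, DESeq2 among them (adjusted p = 0.000427), and in 0 of 7 fits that left out 1 mouse (0.0822 to 0.293).

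**Figure D2:**
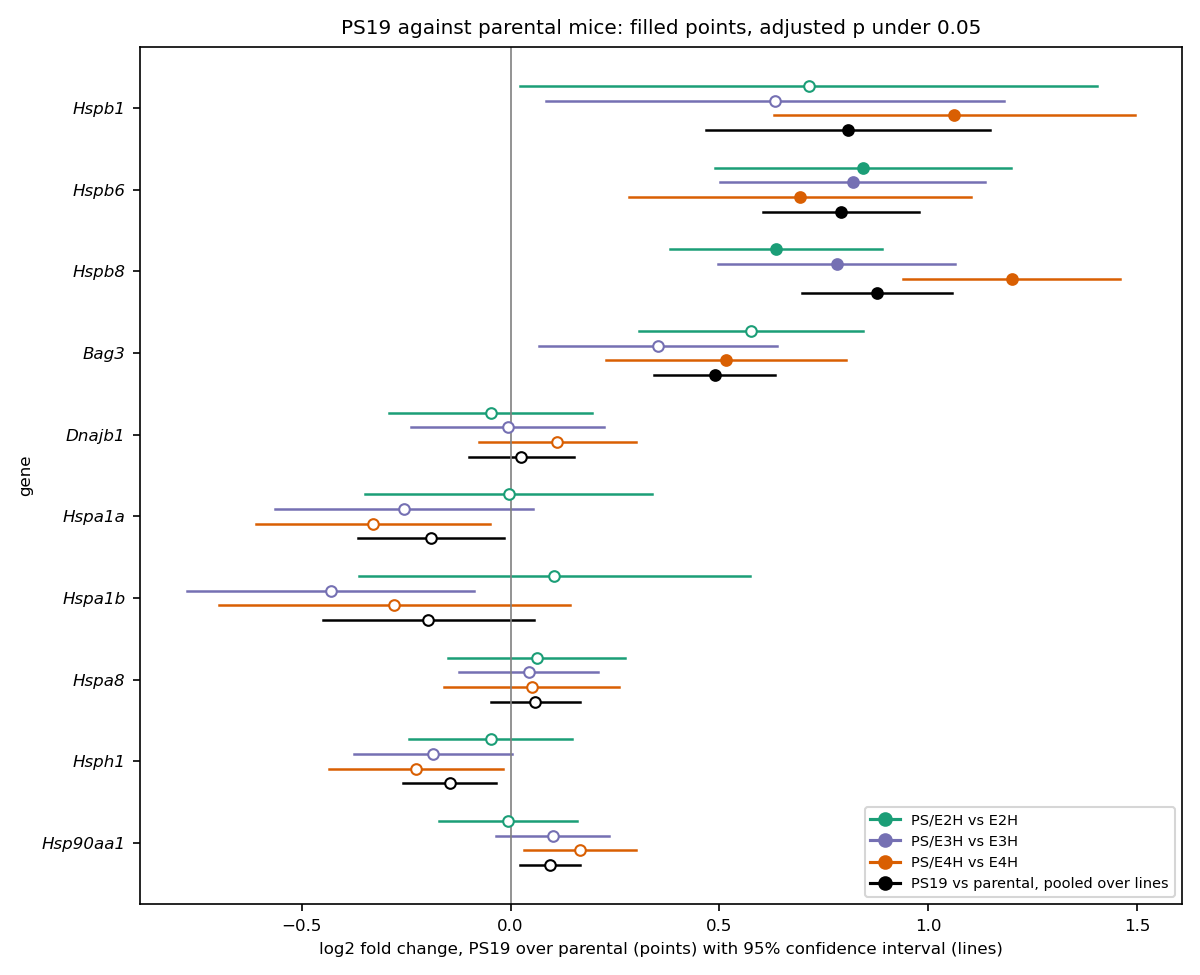
Log2 fold change of each member, PS19 over parental (horizontal axis), in each APOE line and pooled over lines; lines span the 95% confidence interval and filled points passed at an adjusted p under 0.05. The pooled intervals of Hspb1, Hspb6, Hspb8 and Bag3 lie above 0, and every filled point belongs to one of these 4 genes. That of Hsp90aa1 (0.02 to 0.17) also lies above 0. Those of Hsph1 (-0.26 to -0.03) and Hspa1a (-0.37 to -0.01) lie below 0, and none of these other genes passed.

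Counted by line, 2 members passed in PS/E2H (Hspb6 and Hspb8), where 0.752% of 20617 genes passed, 0.669% higher, 0.0825% lower and 0.485% with a fold of at least 2. The same 2 passed in PS/E3H, where 5.37% of 21251 genes passed, 3.35% higher, 2.02% lower and 1.32% with that fold. In PS/E4H 4 passed, Hspb1, Hspb6, Hspb8 and Bag3, among 15.6% of 20844 genes, 8.62% higher, 6.98% lower and 2.98% with a fold of at least 2. Hspb1 and Hspb8 reached that fold in PS/E4H, and 0 members did in PS/E2H or PS/E3H. In each of the 3 lines 0 members were lower. PS/E3H replicate 1 had the lowest astrocyte marker sum of the 12 PS19 mice and the lowest Hspb1, Hspb8 and Bag3. Without it 5 members passed in PS/E3H: Hspb6 and Hspb8, with Bag3 (0.43, adjusted p = 0.0461) and Hspb1 (0.82, 0.0139) higher and Hspa1b lower (-0.55, 0.0299), while the number of all genes that passed went from 1141 to 2584. This mouse was lowest in Hspb1 and Bag3 and, within PS/E3H, highest in Hspa1b. Leaving it out therefore moves these 3 genes in the directions given, and their calls are no separate support. The pseudogene Gm15459, treated below, took 22.7% of its counts for Hspa8 and Gm15459 together. The part of the marker level or of this share was not tested.

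The other 6 members, those of the Hsp70, Hsp110, Hsp90 and Hsp40 families, passed in none of these 4 fits. Dnajb1 makes the Hsp40 that is induced by heat. Its parental levels ran from 51.9 to 72.3 CPM (median 58.4) and its PS19 levels from 46.8 to 73.4 (median 61.3), with a pooled log2 fold change of 0.03 and a 95% confidence interval of -0.10 to 0.15. That interval leaves out a change as large as that of any of the 4 members that rose.

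Hspa1a and Hspa1b, the genes most used as a readout of heat shock, lie 9951 bases apart on chromosome 17 (chr17:34969190-34972156 and chr17:34956436-34959238, both on the minus strand). Their transcripts share 58.8% of the 50-base windows of Hspa1a and 62.3% of those of Hspa1b, so that counting can divide their reads in part. Hspa1a ran from 9.41 to 13.7 CPM (median 12.97) in parental mice and from 7.57 to 12.8 (median 10.6) in PS19 mice. Hspa1b ran from 7.80 to 11.2 CPM (median 10.3) and from 6.07 to 13.2 (median 8.22). Over all mice the groups overlapped for both genes, and the medians were lower in PS19 mice. By line Hspa1a was at -0.25 in PS/E3H and -0.33 in PS/E4H, where the groups did not overlap, and had means of 12.02 CPM in PS/E2H and 12.03 in E2H. Hspa1b was at 0.11 in PS/E2H, -0.43 in PS/E3H and -0.28 in PS/E4H, with adjusted p from 0.106 to 0.996 over these 6 values. The pooled log2 fold changes were -0.19 for Hspa1a (95% confidence interval -0.37 to -0.01, adjusted p = 0.121) and -0.20 for Hspa1b (-0.45 to 0.06, 0.286). With the counts of both copies summed the value was -0.19 (adjusted p = 0.159). Hspa1a passed, at -0.25, when E2H replicate 1 was left out (adjusted p = 0.0264).

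Hsph1, the Hsp110 partner of Hsp70, ran from 273 to 332 CPM (median 302) in parental mice and from 235 to 316 (median 272) in PS19 mice. The range of the PS19 mice reached lower, with 6 of the 12 under every parental mouse. The log2 fold change of -0.15 ± 0.054 (SE) just missed the threshold (adjusted p = 0.0560), and it passed in 4 of 6 other settings, DESeq2 among them (-0.15, 0.0308), and in 6 of 21 fits that left out 1 mouse, with adjusted p from 0.0232 to 0.205 over all of them. Hsp90aa1 had 1110.2 to 1297 CPM (median 1188) in parental mice and 1222 to 1390.4 (median 1263) in PS19 mice. Its value of 0.09 ± 0.035 (SE) also just missed (adjusted p = 0.0583) and passed in 1 of 7 other settings, DESeq2 (0.09, 0.0422), and in 2 of 21 fits that left out 1 mouse, with adjusted p up to 0.16. Its groups did not overlap in PS/E3H (0.10, adjusted p = 0.389) or in PS/E4H (0.17, 0.0914), and the PS/E4H value passed in 2 of 8 other settings and 1 of 7 fits that left out 1 mouse. About 41.8% of its transcript windows occur in the pseudogene Gm12346, which was given 2477 to 3513 counts a mouse against 72477 to 95403 for the gene, and summing both left the value at 0.09 (adjusted p = 0.0627).

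Hspa8, the constitutive Hsp70 and the most abundant member, needs its pseudogene beside it. Its levels were 1970.2, 2220.4 and 1763 CPM in E2H, 1690.2, 1795 and 1830.0 in E3H, and 1787, 1728 and 1842 in E4H. In PS19 mice they were 2204, 1953, 1999.8 and 2162 CPM (PS/E2H), 1629, 1974, 1893 and 1867 (PS/E3H), and 1529, 2044, 1853 and 1999 (PS/E4H). The groups overlapped, and the pooled log2 fold change was 0.06 (95% confidence interval -0.05 to 0.17, adjusted p = 0.470). The processed pseudogene Gm15459 on chromosome 5 holds 34.6% of the 50-base windows of Hspa8 transcripts. In the 9 parental mice and in 8 PS19 mice it took 7.001% to 7.65% of the counts of both. In the other 4 PS19 mice it took 21.04% (PS/E2H replicate 2), 22.7% (PS/E3H replicate 1), 23.0% (PS/E4H replicate 1) and 22.4% (PS/E4H replicate 3), and each of the 4 had the lowest or next to lowest Hspa8 of its group. Gm15459 itself had a pooled log2 fold change of 0.88 (adjusted p = 0.0200). The sum of both ran from 1828 to 2401 CPM (median 1939) in parental mice and from 1988 to 2473 (median 2152) in PS19 mice, and passed over all mice at 0.14 (adjusted p = 0.0180). It did not pass in PS/E2H (0.12, 0.745), PS/E3H (0.11, 0.353) or PS/E4H (0.17, 0.123). The summed count was added after the data were seen, and the cause of the different shares was not tested.

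**Figure D3:**
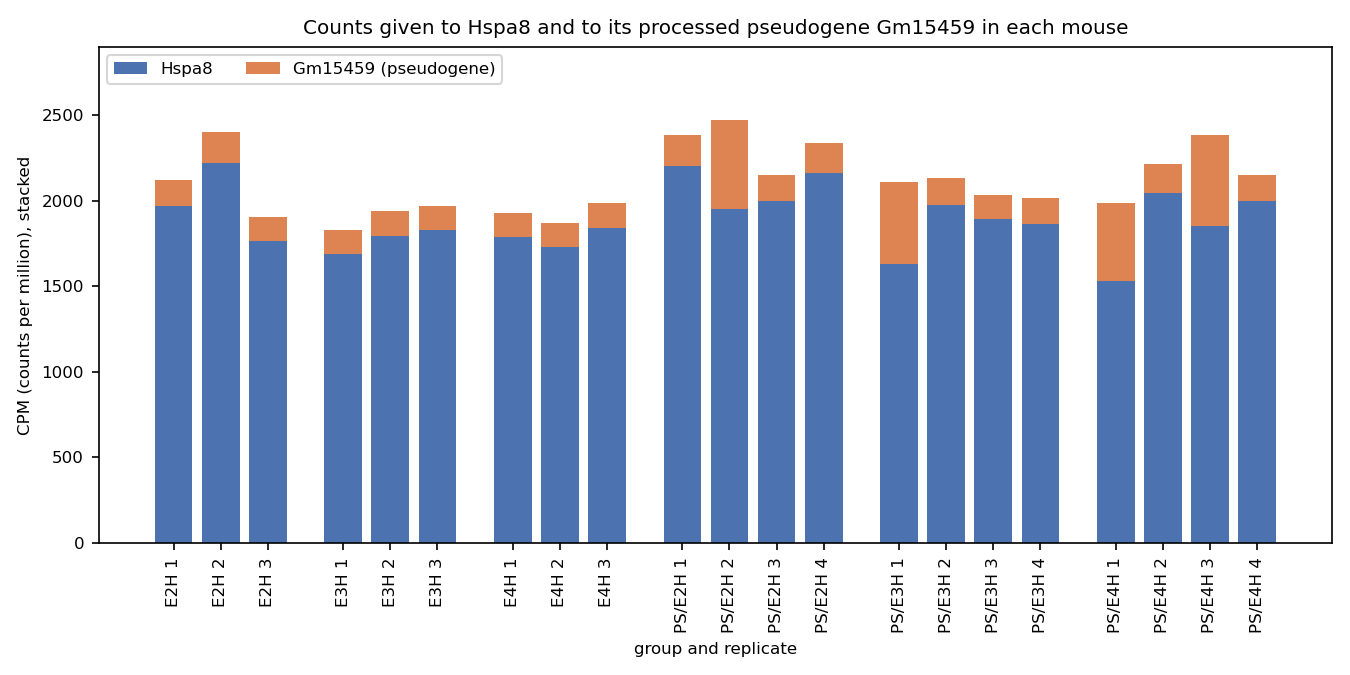
CPM given to Hspa8 (blue) and stacked on it to the pseudogene Gm15459 (orange) in each mouse, by group and replicate number, from 0. The orange part is 21.04% to 23.0% of the bar in 4 PS19 mice and 7.001% to 7.65% in the other 17 mice.

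Whether the difference between PS19 and parental mice in a member depends on the APOE line was tested as the difference of 2 line values. By edgeR 0 of 22133 genes passed for E2H against E3H, 0 of 22212 for E4H against E3H and 0 of 22031 for E4H against E2H (0% called in each), while DESeq2 called 10, 11 and 112 genes and 0 members. At an unadjusted p under 0.05 there were 0, 1 and 1 of the 10 members, Hspb8 in both cases, beside 1265, 847 and 2223 of all genes tested. The PS19 against parental difference of Hspb8 was 0.56 ± 0.16 larger on the log2 scale (SE) in the E4H than in the E2H line (edgeR, adjusted p = 0.335). It was 0.42 ± 0.18 larger in the E4H than in the E3H line (adjusted p = 1). For Hspb6 the difference between E4H and E2H was -0.15, with a 95% confidence interval of -0.67 to 0.36. At this number of mice the interval holds 0 and differences in either direction, and it is not a limit of detection. Which differences pass depends also on the adjustment over all genes. These tests share the E4H or other parental mice between them.

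Between APOE alleles without the transgene 0 members passed, beside 0.178% of genes for E2H against E3H, 0.162% for E4H against E3H and 0.216% for E4H against E2H. At an unadjusted p under 0.05 there were 1, 1 and 2 of the 10 members, beside 2933 of 20797, 1397 of 20958 and 2570 of 20804 genes. Hspb6 had the largest value, with the 3 E4H mice at 5.95 to 6.08 CPM above the 3 E3H mice at 3.73 to 4.60, a log2 fold change of 0.56 ± 0.14 (SE, edgeR adjusted p = 0.320), and of 0.48 over E2H (adjusted p = 0.363). Dnajb1 was at 65.9 ± 5.77 CPM in E2H against 56.2 ± 3.64 in E3H and 55.8 ± 3.46 in E4H (SD, n = 3 each), with adjusted p of 0.325 and 0.374 in edgeR.

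Among the PS19 mice 0 members passed either, where 0.113% of genes passed for PS/E2H against PS/E3H, 0.0197% for PS/E4H against PS/E3H and 0.119% for PS/E4H against PS/E2H. At an unadjusted p under 0.05 there were 3, 2 and 2 of the 10 members, beside 2383 of 20324, 1324 of 20332 and 2491 of 20202 genes. Hspb8 had a mean of 35.4 ± 4.53 CPM in PS/E4H, beside 28.9 ± 1.61 in PS/E2H and 28.7 ± 4.92 in PS/E3H (SD, n = 4 each), with log2 fold changes of 0.30 (adjusted p = 0.337) and 0.30 (0.760) in edgeR. Bag3 stood the other way, at 12.1 ± 1.30 CPM in PS/E4H against 14.4 ± 0.599 in PS/E2H (-0.25, adjusted p = 0.384). Hspa1a, Hspa1b and Hspa8 had values of 0.33, 0.43 and 0.17 in PS/E2H over PS/E3H, with adjusted p of 0.407, 0.424 and 0.424. DESeq2 also called 0 members in each of these 6 comparisons of APOE alleles.

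Some members were high in the same mice. After the mean of each group was subtracted from log2 CPM, the 45 pairs of members were correlated over the 21 mice, with two-sided permutation of mice within groups (100000 draws). In 2 pairs the adjusted p was under 0.05. How often pairs of other genes reach this was not measured, so the count does not show that members vary together more than other genes. Hspa1a and Hspa1b had a Pearson r of 0.837 (permutation p = 8e-05, adjusted p = 0.0036) and a Spearman rho of 0.860, and r was 0.833 without the 2 mice farthest from the median of Hspa1a. The transcripts of these copies share 58.8% of the sequence windows of Hspa1a and 62.3% of those of Hspa1b. The part of this sharing in r was not tested. Hspb1 and Hspb8 had an r of 0.740 (permutation p = 0.00144, adjusted p = 0.0324) and a rho of 0.731 (permutation p = 0.00181, adjusted p = 0.0407), and r was 0.728 without the 2 farthest mice. They share no sequence windows. Hsph1 and Hspb8 ran in opposite senses (r = -0.650, permutation adjusted p = 0.190), which did not pass.

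**Figure D4:**
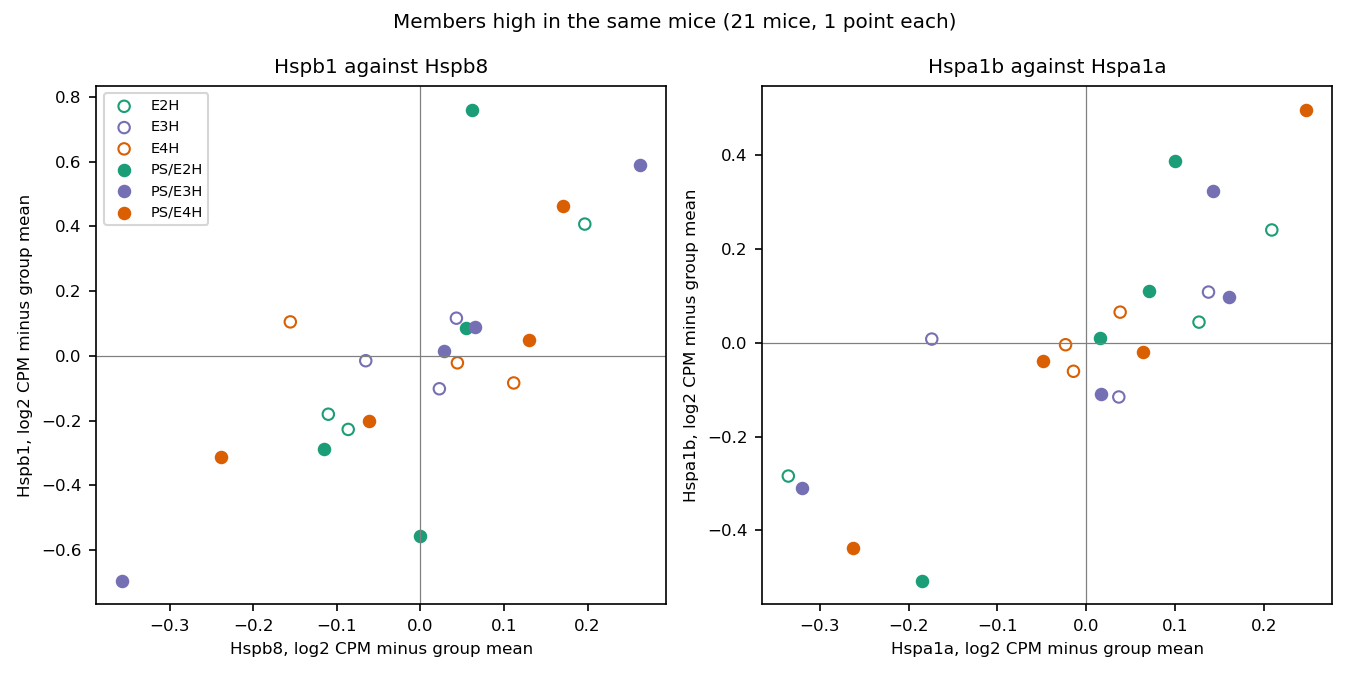
Log2 CPM minus the group mean for Hspb1 against Hspb8 (left) and Hspa1b against Hspa1a (right), 1 point for each of the 21 mice, open for parental and filled for PS19. Points rise together in both panels, with r of 0.740 and 0.837.

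By the same measure, the genes most like Hspb1 among 22862 were Tnfrsf11b (r = 0.846), Rbm38 (0.843), Tspan4 (0.814), Cnih4 (0.801) and Rpl23 (0.790). Those most like Hspa1b were Rnf182 (0.891), Pcdh8 (0.844), Hspa1a (0.837), Nectin1 (0.832) and Tmem45a (0.828). They are the highest of many and are given as a description. Those listed for Hspb1 all exceed its r of 0.740 with Hspb8.

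The rest of the chaperone network was taken from lists of 85 genes. Over all mice 16 of the 85 were higher in PS19 mice, 8 were lower and 61 did not pass, beside the 11.4% and 9.63% of all genes. The heat shock factor gene Hsf1 fell by 0.23 on the log2 scale, from 29.5 ± 2.27 CPM (SD, n = 9) to 25.3 ± 3.49 (SD, n = 12; adjusted p = 0.0225), and 5 of 6 genes of heat shock factors and their regulators did not pass. By line Hsf1 was at -0.45 in PS/E3H (adjusted p = 0.0374) and -0.31 in PS/E4H (0.0435), but at 0.06 in PS/E2H (0.911). Of 7 other small heat shock protein genes, Cryab, which makes alpha B-crystallin, was higher (0.35, adjusted p = 0.0316), at 78.1 to 177 CPM in PS19 mice against 88.5 to 141 in parental mice. By line Cryab was at 0.53 in PS/E3H (adjusted p = 0.0409) and 0.55 in PS/E4H (0.0218), but at -0.05 in PS/E2H (0.967). Neither gene passed the edgeR tests of a difference between lines, in which 0 genes did. Among 8 other Hsp70 and Hsp110 genes, Hspa12a was lower (-0.21, adjusted p = 0.00209), and among 10 other Hsp40 genes Dnajb5 (-0.25, 0.0133) and Dnaja4 (-0.13, 0.0446) were lower. The 5 other BAG genes did not pass over all mice, and 1 of them was higher in PS/E4H.

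Of 13 genes for Hsp90 beta and co-chaperones, 2 were higher and 3 lower. Fkbp5, a co-chaperone that glucocorticoids induce, was higher by 1.03 (adjusted p = 0.000694), and Ptges3 (-0.18, 0.00527), Chordc1 (-0.17, 0.0210) and Ppid (-0.15, 0.00378) were lower. By line Fkbp5 was at 1.53 in PS/E2H (adjusted p = 0.137), 0.73 in PS/E3H (0.0907) and 0.82 in PS/E4H (0.0129). The PS/E2H mice ran from 57.4 to 190 CPM. Hsp90ab1, the Hsp90 beta gene, had a log2 fold change of 0.01 (adjusted p = 0.920). Of the 8 subunits of the chaperonin TRiC, 5 were higher, among them Cct7 by 0.17 (adjusted p = 0.0152), Cct5 by 0.16 (0.0292), Cct3 by 0.16 (0.0165) and Cct6a by 0.13 (0.0244). By line 0 of the 8 passed in PS/E2H, in PS/E3H or in PS/E4H. Trap1 (0.17, 0.00159) and Hspa9 (0.16, 0.000595) were higher among 8 mitochondrial chaperones, and Dnajc3 (0.23, 0.00292) and Pdia3 (0.20, 0.000255) among 12 of the endoplasmic reticulum.

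Of 9 genes for partners of BAG3 in selective autophagy, 4 were higher and 1 lower. Flnc makes filamin C, an actin crosslinker that BAG3 and HSPB8 are known to clear in muscle. Its levels were 2.27 to 3.86 CPM in the 9 parental mice and 3.93 to 16.5 in the 12 PS19 mice, with a log2 fold change of 1.28 ± 0.18 (SE, adjusted p = 2.55e-05), above that of any member. The autophagy receptor genes Sqstm1 (0.20, adjusted p = 0.00272) and Optn (0.23, 0.0138) were also higher, and Wdfy3, which makes a scaffold for aggregate clearance, was lower (-0.22, 0.0370). The PS19 range of Wdfy3 (92.0 to 136 CPM) lay inside its parental range (85.8 to 159). Its means were 112 CPM in E2H and 110 in PS/E2H, 153 in E3H and 128 in PS/E3H, and 141 in E4H and 108 in PS/E4H. Within lines, 0 of 84 tested chaperone genes passed in PS/E2H, beside 0.752% of all genes. In PS/E3H 2 of 83 were higher and 3 lower, beside 3.35% and 2.02% of all genes, and in PS/E4H 13 of 84 were higher and 5 lower, beside 8.62% and 6.98%.

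**Figure D5:**
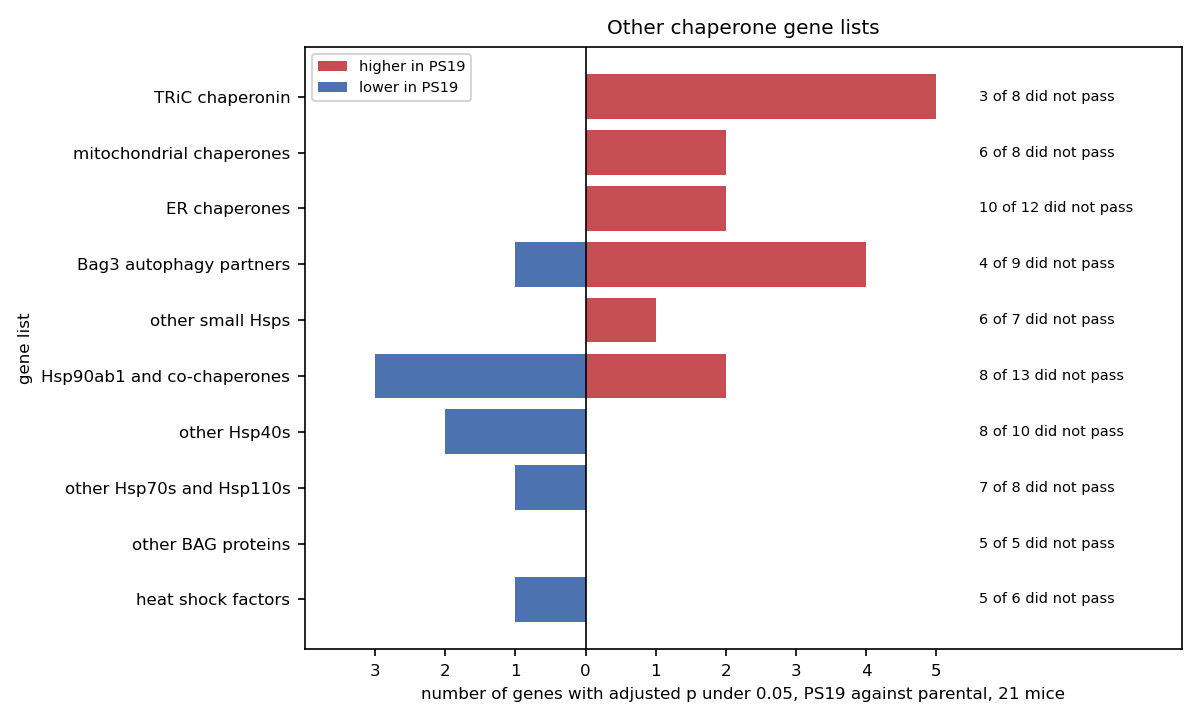
Number of genes in each of 10 other chaperone lists with an adjusted p under 0.05 in PS19 against parental mice (21 mice), to the right for higher and to the left for lower; the text beside each bar gives those that did not pass. The bars reach 5 higher for TRiC and 3 lower for the Hsp90 list. Within each APOE line on its own, 0 TRiC genes passed.

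Markers of cell types moved with the same comparison. Of 8 astrocyte markers 8 were higher in PS19 mice, and their summed level was 3812 to 4444 CPM in parental and 5453 to 7479 in PS19 mice. Gfap led with a log2 fold change of 2.68 (adjusted p = 2.26e-11). Of 8 microglia markers 7 were higher (sums of 409.7 to 554 and 666 to 1194 CPM), of 8 oligodendrocyte markers 5 (5019 to 7369 and 6320 to 9594 CPM), and of 8 neuron markers 2 were higher and 4 lower (6142 to 6720 and 5417 to 6625 CPM). Each of the 7 glucocorticoid-response genes, which include Fkbp5, was higher (304 to 498 and 463 to 1333 CPM). By line the counts differed. In PS/E2H, where Hspb6 and Hspb8 passed, 1 of 8 astrocyte, 3 of 8 microglia, 0 of 8 oligodendrocyte and 0 of 7 glucocorticoid-response genes were higher. In PS/E3H these were 7, 6, 7 and 4, and in PS/E4H 7, 7, 7 and 6. Of all genes, 0.669% were higher in PS/E2H, 3.35% in PS/E3H and 8.62% in PS/E4H. Astrocyte sums did not overlap between E2H (3877 to 4444 CPM) and PS/E2H (5522 to 6502). Nor did those of microglia (427 to 554 and 666 to 921) and glucocorticoid-response genes (399 to 498 and 602 to 1333). Neuron sums were lower in PS/E2H (6188 to 6720 and 5738 to 6171), and oligodendrocyte sums overlapped (6688 to 7369 and 6320 to 7670). The median log2 fold change of the astrocyte list was 0.29 in PS/E2H, 0.44 in PS/E3H and 0.61 in PS/E4H, and that of the oligodendrocyte list -0.08, 0.36 and 0.45. Endothelial, mural and choroid plexus lists had 2 of 6, 1 of 6 and 1 of 5 genes higher. Muscle is a tissue in which Hspb6 and Hspb8 are abundant. Of 6 skeletal muscle genes 5 could be tested, 1 was higher, and their sum was 5.40 to 9.12 CPM in parental and 5.87 to 8.90 in PS19 mice. Of 4 pituitary hormone genes 1 (Prl) and of 8 immediate early genes 1 (Egr1) were lower, and 0 of 5 red cell genes passed. No marker in these lists was at 0 in all mice.

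Across mice within groups, each member was set against the summed astrocyte, microglia, oligodendrocyte, neuron and glucocorticoid lists (50 pairs, 21 mice, added after the data were seen), and in 0 pairs was the permutation adjusted p under 0.05. For Hspb8 r was 0.547 with astrocyte (rho 0.422; permutation p = 0.0710, adjusted p = 0.476) and 0.596 with microglia markers (rho 0.505; permutation p = 0.0336, adjusted p = 0.476). Without the 2 farthest mice these were 0.221 and 0.603. For Hspb1 r was 0.571 with the glucocorticoid list (rho 0.501; permutation p = 0.0899, adjusted p = 0.476). Hspb6 had an r of 0.036 with astrocyte markers and -0.346 with the glucocorticoid list, and Bag3 of 0.139 and 0.068. The largest r of the 50 pairs was 0.641, for Dnajb1 with neuron markers (rho 0.596, permutation p = 0.0160, adjusted p = 0.476). The part of cell make-up in the rise of the 4 members was not tested beyond this.

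Total counts per mouse were 59265459 to 75932183 (median 63751715), and the members' counts ran from 233 for Hspb6 to 153080 for Hspa8. No 2 libraries of a group were identical. The mouse Apoe gene, whose coding part the human alleles replace, still had 617 to 1164 counts a mouse, and the count table was not used to check the APOE alleles. The labels do not state more than mouse and group, so the p-values measure the spread between these mice.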

How the data were processed

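Forebrain RNA of 21 mice was sequenced by the authors from stranded poly(A) libraries as read pairs. Per the labels and the methods, reads were trimmed with cutadapt, aligned with HISAT2 and assembled with StringTie. The labels give the genome as GRCm38.p5, and the methods point to an Ensembl release of the mouse genome without naming a build. Tool versions, the derivation of the counts and their strand setting are not given in the sources used here. The authors deposited a table of raw counts for 55401 Ensembl genes and a table of FPKM values for 37538 genes. The notes also name DESeq2 and edgeR. 55141 identifiers matched a gene symbol.

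Counts were tested with edgeR 4.0.16 (TMM scaling, quasi-likelihood, filterByExpr with a minimum count of 10 and total of 15, R 4.3.3), each comparison fitted on its own mice and the pooled one on all 21 with APOE line as a covariate. Interactions were fitted on the 4 groups concerned. P-values were adjusted over all genes tested (Benjamini-Hochberg) and called at 0.05. Levels within a gene are CPM, and levels between genes are the deposited FPKM values. Alternatives were DESeq2 1.42.0, RLE scaling, limma 3.58.1 on log2(FPKM + 1) and log2(FPKM + 0.1), no count filter, a fold of at least 2, one fit over the 6 groups, the replicate block and leaving out each mouse. The scripts were tested on simulated counts. Sharing between genes was measured as 50-base windows of GENCODE M21 transcripts (GRCm38), and correlations used permutation within groups.

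The 10 members and the gene lists were chosen with earlier results of these data known. The genes named are all 10 members, at most 4 genes of each list that passed in the pooled comparison in order of absolute log2 fold change, Hsf1, Hsp90ab1 and Cryab whatever their result, and the 5 genes most like Hspb1 and Hspa1b. Pseudogene sums and marker correlations were added after the data were seen. Totals were 59265459 to 75932183 counts a mouse, and the members' own counts, down to 233 for Hspb6, set how far counting error adds to the spread between mice. The same mice serve in several comparisons, which are therefore not independent.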

Additional observations from a re-analysis of the deposited data

Results flagged for a closer look

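The share of Hspa8 and Gm15459 counts given to the pseudogene Gm15459 set a single mouse far apart in 2 groups of 4. In PS/E2H, replicate 2 stood at 21.04% and the next mouse at 7.60%, a gap of 0.969 of the whole range of the group. In PS/E3H, replicate 1 stood at 22.7% and the next at 7.62%, a gap of 0.962 of the range. Both gaps exceed Dixon's 95% critical value for 4 samples, which chance alone passes in about 5% of groups. In PS/E4H 2 mice were high together, so that no single one stood apart. For the levels of the 10 members, 30 groups of 4 mice were examined and 0 held such a mouse.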

How the results depend on the processing

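Hspb1, Hspb6, Hspb8 and Bag3 passed in the pooled comparison in 21 of 21 fits that left out 1 mouse, and no member that passed changed its direction under any setting run. The calls within lines were less stable. Of the 2 members called in PS/E2H, 0 remained past a fold of at least 2, 0 with no filter on low counts and 1 with limma on log2(FPKM + 1), and leaving out 1 mouse gave 0 to 1. In PS/E3H the 2 became 0 with the fold, and 0 to 5 without 1 mouse, with 0 when any 1 E3H mouse was left out. In PS/E4H the 4 became 2 with the fold and 2 with no filter, and 2 to 6 without 1 mouse. Hspb6 passed there in 3 of 7 other settings (adjusted p up to 0.118). Without PS/E4H replicate 3, Hspa1a (-0.41, adjusted p = 0.0447) and Hsph1 (-0.31, 0.018) also passed as lower. In the pooled comparison 0 members reached the fold, and leaving out 1 mouse gave 4 to 6. The cause was not tested.

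Same-numbered mice did not vary together (correlations of -0.12 to 0.095), so the numbers do not pair the mice. With the replicate block, 1 member passed in PS/E2H, 2 in PS/E4H and 4 in the pooled comparison.

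Counts of all genes moved with the tool and with single mice. DESeq2 called 690 genes in PS/E2H and 2468 in PS/E3H where edgeR called 155 and 1141, and 35 to 590 in the 6 APOE comparisons where edgeR called 4 to 45. With no filter on low counts edgeR called 70 and 554 genes in PS/E2H and PS/E3H, limma on log2(FPKM + 1) called 91 and 652, and one fit over the 6 groups called 557 in PS/E2H. The replicate block gave 246, 529 and 1249 genes in PS/E2H, PS/E3H and PS/E4H. Leaving out 1 mouse gave 31 to 142, 113 to 2584 and 1189 to 3402 genes. Groups of 3 and 4 mice limit what a miss can show.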
